A study of Homo sapiens with 6 samples.

Results

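The ADAM, ADAMTS, MMP and TIMP families were followed across 6 Affymetrix arrays of Caco-2 cells, an established epithelial cell line from a human colorectal tumour. Members were taken by name: a probe set counted if the platform annotation gave it exactly 1 gene symbol and that symbol was ADAM, ADAMTS, ADAMTSL, MMP or TIMP followed directly by a number and at most a final letter. This gave 160 of the 54675 probe sets on the array, for 71 of 19775 genes. Of these genes 22 were ADAM (56 probe sets), 23 were ADAMTS with ADAMTSL (52 probe sets), 22 were MMP (43 probe sets) and 4 were TIMP (9 probe sets).

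In 1 group, 3 arrays held RNA from cells transfected with an siRNA (a small interfering RNA) against SDC1. In the other, 3 arrays held RNA from cells given a negative control siRNA. All cells were of this single line, were grown alike and went through transfection, and the sources used here give neither the siRNA sequences nor the time of harvest. The design text calls the replicates independent without saying that they came from separate cultures, so each p-value below reflects only how much these 6 arrays vary, and that variation may be technical.

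These families work together on the cell surface and the matrix around it. ADAM proteins are membrane-anchored, and those with an active zinc site cut the outer parts of other membrane proteins, a step called shedding. ADAMTS proteins are secreted and cleave matrix proteoglycans, procollagens and other large matrix proteins, while ADAMTSL proteins share their accessory domains but lack the protease. MMPs cut collagens, gelatin, laminins and many surface proteins, and TIMPs are the tissue inhibitors that bind and block the active site of MMPs and of some ADAM and ADAMTS enzymes. SDC1 encodes syndecan-1, a heparan sulfate proteoglycan of epithelial cells and itself a substrate of shedding enzymes from these families, which is the link between the siRNA target and the genes described here.

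The deposited values were log2 signals from which each probe set's own median had been taken away, so 0 marks the middle of the 6 arrays and levels of different genes cannot be compared. A rough brightness class (log2 signal below 4, 4 to 8, or 8 to 16) was read from the step size of the stored numbers. Chance can place a gene a class too high. For each gene, probe sets of the brightest class it reached were averaged. Of the 71 genes, 11 were in the class 8 to 16, 38 in the class 4 to 8 and 22 below 4.

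SDC1 itself read -0.50, -0.62 and -0.34 on SDC1 siRNA replicates 1, 2 and 3, and 0.37, 0.35 and 0.35 on control siRNA replicates 1, 2 and 3. It fell by 0.84 ± 0.08 on the log2 scale (standard error, limma adjusted p = 0.0238), a call that no set of 5 arrays kept. Of the 8 epithelial markers looked at, 5 were in the class 8 to 16 (EPCAM, CDH1, KRT8, KRT18 and KRT19). VIL1 and CDX2 were in the class 4 to 8, and KRT20 was below 4. Among 6 fibroblast markers COL1A1 and COL1A2 were in the class 8 to 16. The 6 differences ran from -0.62 for LUM to 0.37 for COL1A2, with 3 above 0 and 3 below. Of these, 1 and 3 were at an unadjusted p under 0.05 (5.43% of all genes were higher and 5.19% lower at that threshold). None of the 3 measured leukocyte markers was in the class 8 to 16, but CD14 and CD3E were in the class 4 to 8. CD3E, at 0.22, was also at an unadjusted p under 0.05. The 8 epithelial markers ran from -0.04 to 0.19, with 0 at that threshold. The part of other cell types in the results below was not tested. Precision is bounded by having 3 arrays a group, and the standard error of a difference ran from 0.06 to 0.22 over the 71 genes, with a median of 0.09.

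The promoters of 3 genes are shown first because they represent the kinds of promoter found in these families: ADAMTS18, the gene that changed, ADAM17, a widely expressed sheddase of the class 8 to 16, and MMP7, a sheddase of the class below 4. Each line gives the 250 bases before the RefSeq start, 5′ to 3′ on the gene's own strand (GRCh38.p14). The ADAMTS18 stretch is chr16:77435035-77435284, minus strand, the ADAM17 stretch chr2:9555831-9556080, minus strand, and the MMP7 stretch chr11:102530748-102530997, minus strand. Capitals mark matches, on either strand, to the GC box GGGCGG, the TATA box TATAAA, the AP-1 motif TGANTCA or the E-box CAGGTG.
ADAMTS18: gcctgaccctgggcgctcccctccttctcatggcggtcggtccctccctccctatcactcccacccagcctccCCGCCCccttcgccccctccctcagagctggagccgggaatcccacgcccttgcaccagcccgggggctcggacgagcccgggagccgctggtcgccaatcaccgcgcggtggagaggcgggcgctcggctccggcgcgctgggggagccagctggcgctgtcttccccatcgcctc
ADAM17: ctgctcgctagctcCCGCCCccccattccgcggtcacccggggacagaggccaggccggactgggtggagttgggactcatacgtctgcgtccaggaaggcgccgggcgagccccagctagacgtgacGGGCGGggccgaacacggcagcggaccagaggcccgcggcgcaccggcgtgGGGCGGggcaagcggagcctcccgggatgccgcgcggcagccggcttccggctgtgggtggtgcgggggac
MMP7: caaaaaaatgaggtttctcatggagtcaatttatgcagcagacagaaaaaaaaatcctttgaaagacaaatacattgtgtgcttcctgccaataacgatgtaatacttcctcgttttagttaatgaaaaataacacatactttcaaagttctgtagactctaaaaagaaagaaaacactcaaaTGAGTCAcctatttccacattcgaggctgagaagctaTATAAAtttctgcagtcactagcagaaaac

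The stretch of ADAMTS18 held 24 CpG dinucleotides and 1 GC box, with no TATA box or AP-1 motif. That of ADAM17 held 31 CpG dinucleotides and 3 GC boxes. That of MMP7 held 3 CpG dinucleotides, an AP-1 motif that began 67 bases before the start and a TATA box that began 30 bases before it. A match is a description of letters, not of a working site.

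ADAMTS18, a secreted metalloproteinase of the ADAMTS family, was the 1 member called with SDC1 siRNA, with limits given below. Its brighter probe set (class 4 to 8) read -0.37, -0.67 and -0.52 on SDC1 siRNA replicates 1, 2 and 3, against 0.37, 0.63 and 0.47 on control siRNA replicates 1, 2 and 3. All 3 SDC1 siRNA arrays lay below all 3 control arrays, with a gap wider than the spread inside either group. The mean was -0.52 ± 0.15 with SDC1 siRNA and 0.49 ± 0.13 with control siRNA (SD, n = 3 arrays each). ADAMTS18 fell by 1.01 ± 0.10 on the log2 scale (standard error, 95% interval from -1.24 to -0.78), a signal 2.01-fold lower with SDC1 siRNA, with a limma adjusted p = 0.0238 over 19775 genes. This was the lowest of the 19775 fitted gene differences.

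The call rests on 1 of 2 probe sets and on all 6 arrays. The rule that took the brighter probe set was fixed with earlier results of these data known. The dimmer ADAMTS18 probe set (class below 4) read -0.03, -0.01 and 0.11 on SDC1 siRNA replicates 1, 2 and 3, and 0.01, -0.01 and 0.33 on control siRNA replicates 1, 2 and 3. Its groups overlapped, and its difference was -0.09 ± 0.11 (limma adjusted p = 0.868 among 54613 probe sets). The brighter probe set tested singly had an adjusted p = 0.121, and the mean of both gave -0.55 ± 0.08 (limma adjusted p = 0.094). With any of the 6 arrays left out the difference lay between -1.08 and -0.93, and the adjusted p between 0.0812 and 0.178. By exact permutation of the 6 arrays the two-sided p was 0.1, which is the smallest that 3 and 3 arrays can give.

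**Figure D1:**
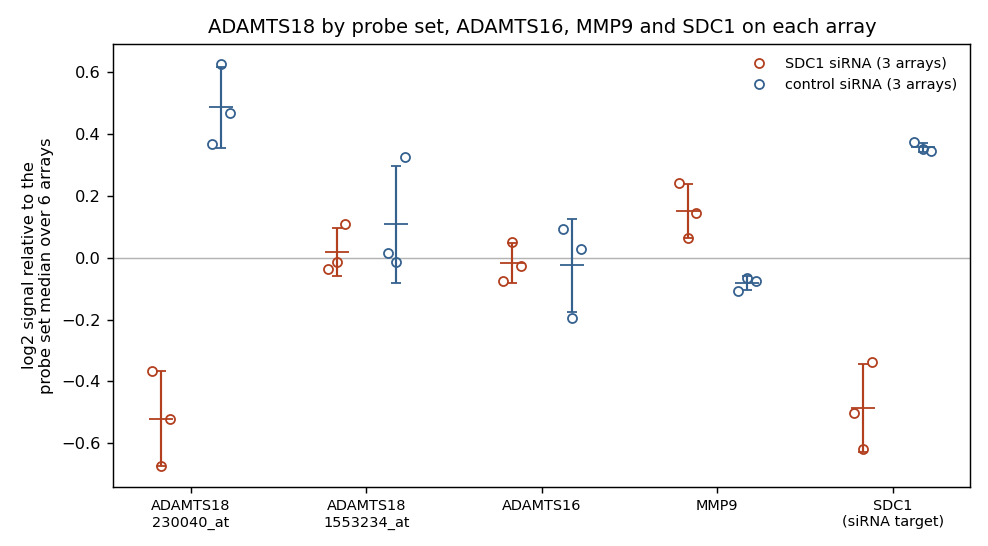
Median-centred log2 signal (y axis) for both ADAMTS18 probe sets, ADAMTS16, MMP9 and SDC1. Circles are single arrays, 3 with SDC1 siRNA (left of each pair) and 3 with control siRNA (right), dashes are group means and bars the SD. Of both ADAMTS18 probe sets, the brighter alone separates the groups, with means of -0.52 and 0.49.

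Among the 71 genes, ADAMTS18 was the 1 past an adjusted p of 0.05. Over all genes that threshold was passed by 0.0253%, or 5 of 19775 (limma, Benjamini-Hochberg), and 0.0152% passed as lower. The other 70 genes differed by -0.23 to 0.36 on the log2 scale, and 0 of them reached a 1.5-fold difference, as 0.152% of all genes did. The 95% intervals of 0 of these 70 extended down to the upper end of the ADAMTS18 interval. At an unadjusted p under 0.05 there were 7 members (9.86%), against a background of 10.6% of all genes, so this share was near the background.

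By direction, 6 members were higher at that unadjusted threshold (8.45%, background 5.43%) and ADAMTS18 alone was lower (1.41%, background 5.19%). The groups did not overlap in 11 members, 10 of them higher with SDC1 siRNA (14.1%, background 8.26%) and 1 lower (1.41%, background 8.47%). Of all 71, 49 were above 0 and 22 below, 69.0% above 0 where all genes had 52.1%. The median difference was 0.04 over the members and 0.01 over all genes. This tilt hung on control replicate 2: without it 40 of 71 were above 0 (56.3%, all genes 50.8%), with a median of 0.01. Without that array 5 members were higher and 4 lower at an unadjusted p under 0.05 (ADAM3B, MMP24 and MMP26 beside ADAMTS18), against 1120 higher and 994 lower of all 19775 genes. Among the higher members ADAM3A and ADAM20 dropped out, at differences of 0.13 and 0.14, and ADAMTS14 joined.

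The families differed little in their medians. ADAM genes had a median of 0.07 with 17 of 22 above 0, and ADAMTS with ADAMTSL a median of 0.06 with 15 of 23. MMP genes had a median of 0.02 with 14 of 22 above 0, and TIMP genes a median of 0.03 with 3 of 4. Without control replicate 2 the ADAM median stayed at 0.07 (16 of 22 above 0), while the other medians were 0.01 for ADAMTS with ADAMTSL (12 of 23), -0.01 for MMP (9 of 22) and 0.03 for TIMP (3 of 4). On that array the median MMP gene read -0.11, lower than on any other array, where it ran from -0.01 to 0.04.

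**Figure D2:**
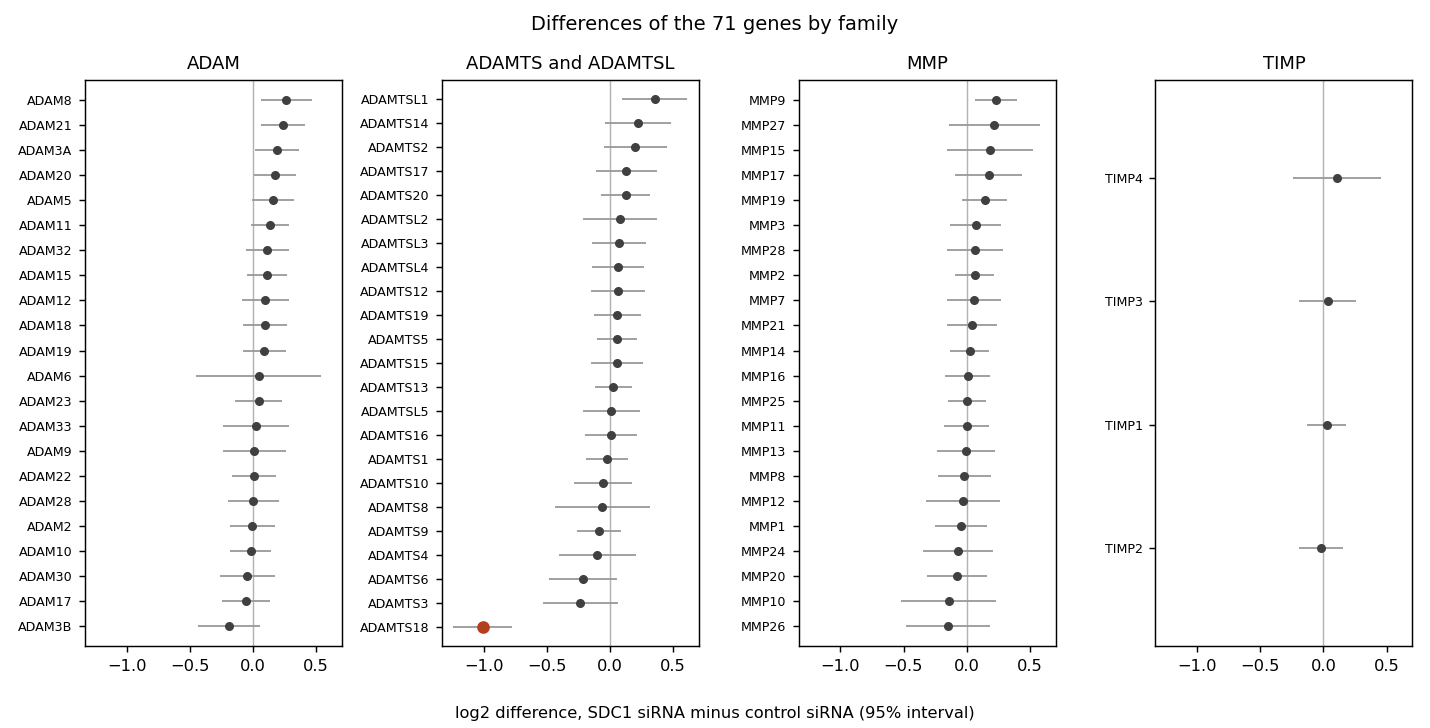
Log2 difference, SDC1 siRNA minus control siRNA (x axis), with its 95% interval for each of the 71 genes, ordered within each family. The larger coloured point is ADAMTS18 at -1.01, the 1 gene past an adjusted p of 0.05. The other 70 lie between -0.23 and 0.36.

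**Figure D3:**
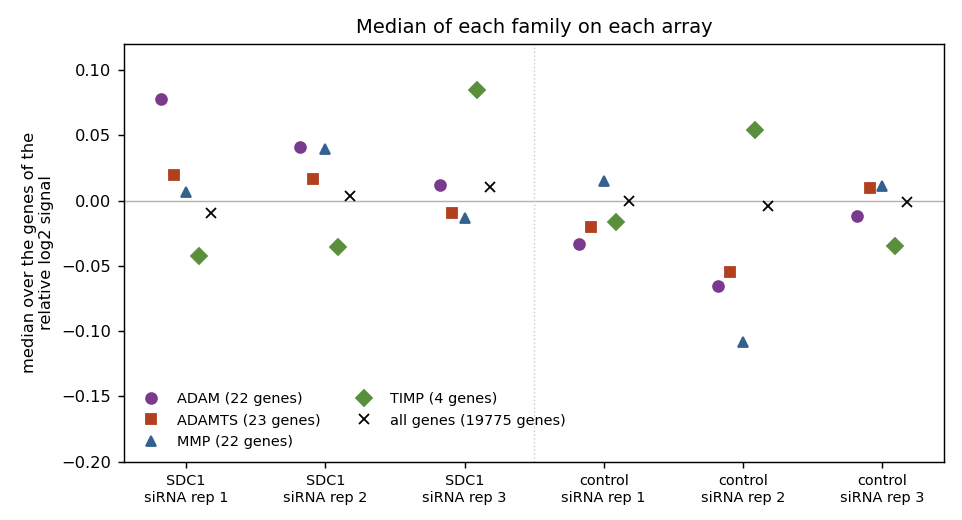
Median over the genes of each family of the relative log2 signal (y axis) on each of the 6 arrays (x axis, SDC1 siRNA left of the dotted line and control siRNA right of it). Crosses give the median of all 19775 genes, and control replicate 2 shows the lowest MMP median, -0.11.

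Of the other ADAMTS proteases, 0 of 17 were past the adjusted threshold (0.0253% of all genes were) or an unadjusted p under 0.05 (10.6% of all genes were). A count of 0 among 17 genes is not far from these shares. Of the 17, 10 lay above 0 and 7 below, with a median of 0.03. ADAMTS16 is the nearest relative of ADAMTS18 in the family, and the relatives are thought to have arisen by duplication. ADAMTS16 read -0.07, 0.05 and -0.03 on SDC1 siRNA replicates 1, 2 and 3, and 0.09, -0.19 and 0.03 on control siRNA replicates 1, 2 and 3. These values overlapped, with a difference of 0.01 ± 0.09 (95% interval from -0.20 to 0.21, limma adjusted p = 0.985), which turned to -0.08 without control replicate 2. ADAMTS16 was measured by 1 probe set of the class 4 to 8.

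ADAMTS18 was set directly against ADAMTS16 on each array. The signal of ADAMTS18 minus that of ADAMTS16 was -0.29, -0.73 and -0.49 on SDC1 siRNA replicates 1, 2 and 3, against 0.27, 0.82 and 0.44 on control siRNA replicates 1, 2 and 3. The groups did not overlap, and their means differed by -1.02. The two-sided p by exact permutation was 0.1, again the smallest that this test can give with 3 and 3 arrays, so this test could not pass 0.05. The difference depended on the ADAMTS18 probe set: it was -0.56 with both probe sets averaged (exact permutation p = 0.1) and -0.10 with the dimmer probe set alone (exact permutation p = 0.5).

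The remaining paired relatives were also within the spread of the arrays. ADAMTS6, whose partner is ADAMTS10, was at -0.21 ± 0.12 and ADAMTS10 at -0.05 ± 0.10. ADAMTS17 and ADAMTS19 were at 0.13 ± 0.11 and 0.06 ± 0.08. In each of these 4 genes the groups overlapped and the 95% interval held 0.

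Of the 3 enzymes that trim the amino-terminal propeptide from fibrillar procollagens, 0 were at an unadjusted p under 0.05. ADAMTS14 was at 0.22 ± 0.11 and did not pass (limma adjusted p = 0.535). It read 0.02, 0.11 and 0.05 on SDC1 siRNA replicates 1, 2 and 3, and -0.43, -0.03 and -0.02 on control siRNA replicates 1, 2 and 3. Its groups did not overlap, but control replicate 1 lay far below the rest, and the difference was 0.09 without that array.

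ADAMTS2 was at 0.20 ± 0.11 from 1 probe set, and its dimmer probe sets gave 0.11 and -0.19. ADAMTS3 was at -0.23 ± 0.13, also from 1 probe set, in the class below 4, with a range from -0.38 without control replicate 1 to -0.11 without control replicate 2. Neither separated the groups. The 7 proteoglycan-cleaving members (ADAMTS1, 4, 5, 8, 9, 15 and 20) had differences from -0.10 for ADAMTS4 to 0.13 for ADAMTS20, with 3 above 0 and 4 below. ADAMTS13, the protease of von Willebrand factor, was at 0.03 ± 0.06, and ADAMTS12, which cleaves a cartilage matrix protein, at 0.06 ± 0.09.

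With all 6 arrays the 5 ADAMTSL genes lay above 0, with a median of 0.07, but leaving out 1 array took ADAMTSL3, ADAMTSL4 and ADAMTSL5 to as low as -0.0044, -0.012 and -0.052. ADAMTSL1, a secreted matrix protein without a protease domain, had the highest difference of the 71 genes. It read 0.23, 0.08 and 0.04 on SDC1 siRNA replicates 1, 2 and 3, and -0.21, -0.04 and -0.47 on control siRNA replicates 1, 2 and 3. The groups did not overlap, the control arrays were spread more widely, and the difference was 0.36 ± 0.11 (unadjusted p = 0.0123, limma adjusted p = 0.322). It came from 1 of 6 probe sets, the only one above the lowest class, and the mean of all 6 gave 0.09. The other 4 ADAMTSL genes were at 0.01 to 0.08, with intervals that held 0.

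The syndecan sheddases were a list of 8 enzymes reported to cut syndecan ectodomains: ADAM10, ADAM17, MMP2, MMP7, MMP9, MMP14, MMP16 and ADAMTS1. None passed over all genes, and 1 of 8 was at an unadjusted p under 0.05, near the 10.6% of all genes. The median difference of the 8 was 0.02 beside 0.01 over all genes, and 5 lay above 0 and 3 below. Their brightness differed: ADAM10, ADAM17 and MMP9 were in the class 8 to 16, MMP2 and MMP14 in the class 4 to 8, and MMP7, MMP16 and ADAMTS1 below 4.

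MMP9, gelatinase B, was the sheddase with the lowest p. It read 0.24, 0.07 and 0.15 on SDC1 siRNA replicates 1, 2 and 3, against -0.11, -0.07 and -0.07 on control siRNA replicates 1, 2 and 3. The groups did not overlap, and the control arrays were tightly grouped. The means were 0.15 ± 0.09 with SDC1 siRNA and -0.08 ± 0.02 with control siRNA (SD, n = 3 arrays each). The difference was 0.23 ± 0.07 (95% interval from 0.07 to 0.40, unadjusted p = 0.0107, limma adjusted p = 0.318). It rested on 1 probe set of a type (_s_at) that can match several transcripts, and it lay between 0.19 and 0.28 when any array was left out.

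ADAM17, the main sheddase of growth factor precursors and TNF, read -0.03, -0.14 and 0.12 on SDC1 siRNA replicates 1, 2 and 3, and 0.01, 0.10 and -0.00 on control siRNA replicates 1, 2 and 3. ADAM10, which sheds cadherins and Notch receptors, read -0.03, -0.01 and 0.03 on SDC1 siRNA replicates 1, 2 and 3, and -0.04, 0.11 and -0.02 on control siRNA replicates 1, 2 and 3. Both sets of arrays overlapped, and both differences were close to 0. The difference was -0.06 ± 0.08 for ADAM17 (95% interval from -0.25 to 0.13) and -0.02 ± 0.07 for ADAM10 (95% interval from -0.18 to 0.14).

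MMP14, a membrane-type enzyme that also activates pro-MMP2, was at 0.02 ± 0.07, with its 4 probe sets between -0.05 and 0.17. MMP2, gelatinase A, was at 0.06 ± 0.07. Its averaged values did not overlap between the groups (0.043, 0.043 and 0.040 on SDC1 siRNA replicates 1, 2 and 3 against 0.008, -0.107 and 0.036 on control siRNA replicates 1, 2 and 3), but each of its 3 single probe sets did. MMP7, matrilysin, was at 0.06 ± 0.09, MMP16 at 0.01 ± 0.08 and ADAMTS1 at -0.02 ± 0.07. The intervals of these 5 genes held 0, and those of all 8 sheddases lay above that of ADAMTS18.

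**Figure D4:**
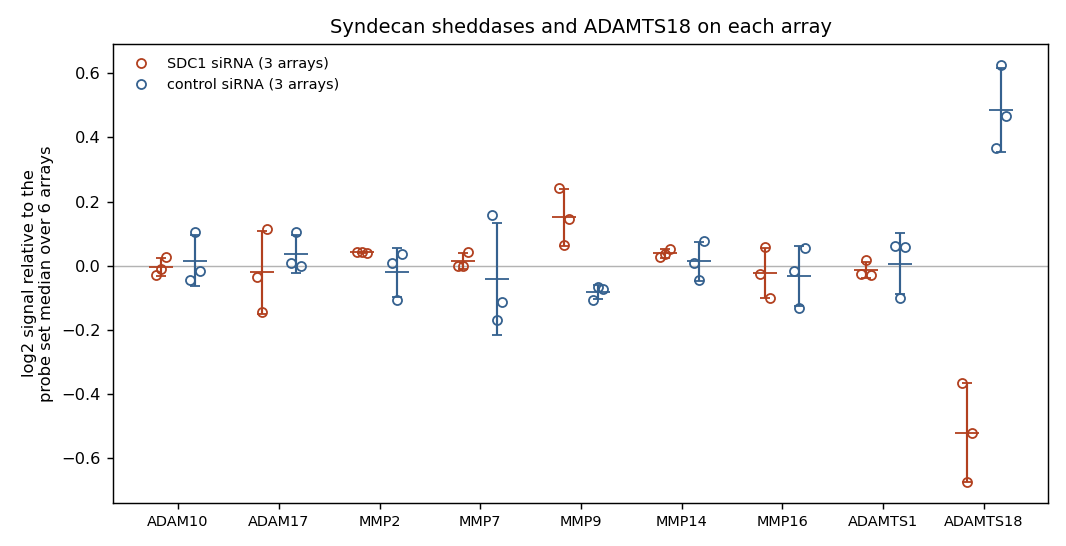
Median-centred log2 signal (y axis) for the 8 syndecan sheddases and ADAMTS18 (x axis). Circles are arrays with SDC1 siRNA (left of each pair) and with control siRNA (right), dashes are means and bars the SD over 3 arrays. In MMP9, MMP2 and ADAMTS18 the groups did not overlap, with differences between the means of 0.23, 0.06 and -1.01. For MMP2 this held for the averaged values only, not for any single probe set.

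Of the 12 ADAM genes with an active site, 9 were above 0 (52.1% of all genes were) and 3 were at an unadjusted p under 0.05, all higher (5.43% of all genes were). ADAM8, an ADAM best known from leukocytes, read 0.14, 0.25 and 0.03 on SDC1 siRNA replicates 1, 2 and 3, and -0.07, -0.05 and -0.25 on control siRNA replicates 1, 2 and 3. The groups did not overlap, and its 2 probe sets gave 0.25 and 0.28. Its difference was 0.26 ± 0.09 (unadjusted p = 0.0159, limma adjusted p = 0.349). Both probe sets are of the _s_at type.

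ADAM21 and ADAM20, related genes best known from the testis, are neighbours on chromosome 14 among the genes measured here (order from RefSeq, GRCh38.p14). ADAM21 read 0.22, 0.08 and 0.05 on SDC1 siRNA replicates 1, 2 and 3, and -0.10, -0.20 and -0.05 on control siRNA replicates 1, 2 and 3. ADAM20 read 0.06, 0.03 and 0.15 on SDC1 siRNA replicates 1, 2 and 3, and -0.08, -0.16 and -0.03 on control siRNA replicates 1, 2 and 3. In both genes the groups did not overlap in either of the 2 probe sets.

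The difference was 0.24 ± 0.08 for ADAM21 (limma adjusted p = 0.341) and 0.18 ± 0.07 for ADAM20 (limma adjusted p = 0.446). Related sequences such as these can share probe signal, so they may not be separate observations. The other 9 active members ran from -0.06 for ADAM17 to 0.11 for ADAM15. ADAM12, at 0.10 from 1 of its 5 probe sets, was at -0.05 with all 5 averaged. Its single probe sets ran from -0.23, with groups that did not overlap, to 0.11. ADAM9, in the class 8 to 16, was at 0.01 ± 0.11.

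The 6 ADAM genes without an active site act in adhesion rather than proteolysis, and none was at an unadjusted p under 0.05 (10.6% of all genes were). ADAM11, known from neurons, was at 0.13 ± 0.07 with groups that did not overlap, and the other 5 ran from -0.00 for ADAM2 to 0.11 for ADAM32. The 4 ADAM pseudogenes were all in the class below 4. ADAM3A was at 0.19 ± 0.08 (unadjusted p = 0.0375, limma adjusted p = 0.44) and ADAM5 at 0.16 ± 0.07, both with groups that did not overlap as gene means. In each of their single probe sets the groups overlapped, and the ADAM3A difference was 0.13 without control replicate 2. ADAM3B was at -0.19 ± 0.11.

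ADAM9, ADAM32, ADAM5 and ADAM3A follow each other on chromosome 8 among the genes measured here, and all 4 lay above 0, from 0.01 to 0.19. ADAM18 and ADAM2, also neighbours on that chromosome, were at 0.09 and -0.0043. Genes of the class below 4 were above 0 more often than brighter ones over the whole array: 61.3% of 4717 genes were above 0 in that class, 53.2% of 9081 in the class 4 to 8 and 43.1% of 5977 in the class 8 to 16. Among the members the shares were 59.1% of 22, 76.3% of 38 and 63.6% of 11.

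Apart from MMP9, no MMP gene was at an unadjusted p under 0.05 with all 6 arrays, while MMP24 and MMP26 joined it, both lower, without control replicate 2. The collagenases MMP1, MMP8 and MMP13 were at -0.04 ± 0.09, -0.02 ± 0.09 and -0.00 ± 0.10. The stromelysins MMP3, MMP10 and MMP11 were at 0.07 ± 0.09, -0.14 ± 0.16 and 0.00 ± 0.08. MMP26, the second matrilysin, was at -0.15 ± 0.15. The 95% interval of each of these 7 genes held 0, and the widest, that of MMP10, ran from -0.52 to 0.23.

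The 6 membrane-type MMPs ran from -0.07 for MMP24 to 0.19 for MMP15, with 5 above 0. MMP15, a transmembrane member, was at 0.19 ± 0.15 and MMP17, a lipid-anchored one, at 0.17 ± 0.12. Both leaned on control replicate 2, which read -0.52 for MMP15 and -0.41 for MMP17, and without it the differences were 0.01 and 0.04. MMP27, a member of little known function, read -0.60 on the same array and was at 0.22 ± 0.16, or 0.02 without it. MMP19, found in many normal tissues, was at 0.14 ± 0.08 (limma adjusted p = 0.575), and 0.21 without SDC1 siRNA replicate 3.

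A run of 9 MMP genes (MMP7, MMP20, MMP27, MMP8, MMP10, MMP1, MMP3, MMP12 and MMP13) lies side by side on chromosome 11 among the genes measured here. Their differences ran from -0.14 to 0.22, with 3 above 0, and 0 reached an unadjusted p under 0.05 (10.6% of all genes did). Of these 9, 8 were in the class below 4, and MMP1 was in the class 4 to 8.

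The inhibitors showed small differences in both directions. TIMP1, TIMP2, TIMP3 and TIMP4 were at 0.03 ± 0.07, -0.02 ± 0.08, 0.03 ± 0.10 and 0.11 ± 0.15, each with groups that overlapped and a 95% interval that held 0. TIMP2 and TIMP3 were in the class 8 to 16, TIMP1 in the class 4 to 8 and TIMP4 below 4. TIMP3, which also blocks ADAM17, read -0.03, -0.04 and 0.10 on SDC1 siRNA replicates 1, 2 and 3, and -0.00, 0.14 and -0.21 on control siRNA replicates 1, 2 and 3. TIMP4 turned to -0.08 without control replicate 2.

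Probe sets of the same gene often disagreed at this size of difference. Of 47 member genes with several probe sets, 22 had all of them on the same side of 0, and the median range between the probe sets of a gene was 0.15 on the log2 scale. The widest range, 0.92, was that of ADAMTS18. Tested singly, 0 of the 160 member probe sets passed an adjusted p of 0.05, as did 0.0% of all 54613 (limma), and 11 (6.88%) were at an unadjusted p under 0.05 against a background of 8.33%. Of these 9 were higher, where 4.18% of all probe sets were.

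Outside the symbol rule, 15 regulators and partners of these enzymes were read: the matrix metalloproteinase inhibitor RECK, the proprotein convertases that activate them, basigin, the iRhoms and FRMD8 that carry ADAM17 to the surface, and the tetraspanins that partner ADAM10. None passed over all genes. Above 0 lay 10 and below it 5, and the median difference was 0.05. BSG, which encodes basigin, a surface glycoprotein known to induce MMPs in neighbouring cells, had the lowest p. It read -0.31, -0.14 and -0.16 on SDC1 siRNA replicates 1, 2 and 3, against 0.30, 0.14 and 0.29 on control siRNA replicates 1, 2 and 3. The groups did not overlap, and the difference was -0.44 ± 0.08 (unadjusted p = 0.000452, limma adjusted p = 0.135), from 1 probe set of the class 4 to 8. That probe set is of the _s_at or _x_at type, which can match several transcripts.

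RHBDF2, which encodes the ADAM17 partner iRhom2, read 0.07, 0.19 and 0.11 on SDC1 siRNA replicates 1, 2 and 3, and -0.12, -0.21 and -0.07 on control siRNA replicates 1, 2 and 3. Its groups did not overlap, and its difference of 0.26 ± 0.07 did not pass (limma adjusted p = 0.287). RECK, named after its values were seen, was the third of the 15 at an unadjusted p under 0.05 (10.6% of all genes were), at 0.17 ± 0.07. It was at 0.06 with all its probe sets averaged and at 0.31 without _x_at and _s_at probe sets. Of 8 related proteins (meprins, BMP1 and the tolloid-like proteases, papilin, ADAMDEC1 and THSD4), 0 were at an unadjusted p under 0.05. ADAMDEC1, an ADAM-like protein known from the gut, was at -0.15 ± 0.11, but at -0.28 without control replicate 2 and -0.05 without control replicate 3. PAPLN, which encodes papilin, was at -0.08 ± 0.08, and at -0.0029 without control replicate 3.

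Promoter windows of 300 bases, from 250 before to 50 after the start, were found in RefSeq (GRCh38.p14) for 41 of the 71 genes, 42 windows in all. Both strands were searched. The TATA box TATAAA was in 6 of 11 MMP windows (54.5%), against 1 of 11 ADAM windows (9.1%), 2 of 17 ADAMTS and ADAMTSL windows (11.8%) and 11.5% of all 35116 windows. Those 6 were MMP7, MMP8, MMP10, MMP20, MMP21 and MMP26, all in the class below 4. Of them MMP7, MMP8, MMP10 and MMP20 lie in the run on chromosome 11, so they may not be separate observations. The AP-1 motif TGANTCA was in 3 MMP windows (MMP7, MMP10 and MMP20) and in that of ADAMTS12, and in 7.7% of all windows. The GC box GGGCGG was in 14 of 17 ADAMTS and ADAMTSL windows (82.4%), in 7 of 11 ADAM windows (63.6%) and in 4 of 11 MMP windows (36.4%), against 45.0% of all windows. All 35116 windows include those of genes not measured here, so they are not a like background for the members. The motif shares also varied with brightness. Over all measured genes in the classes below 4, 4 to 8 and 8 to 16, the GC box was in 34.6%, 59.0% and 66.6% of windows. The TATA box was in 15.7%, 7.7% and 6.4% in the same order. The E-box CAGGTG was in 9 of the 42 (21.4%), near the 20.6% of all windows.

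CpG counts differed between the brightness classes. The median CpG count was 3.5 in the 10 windows of members below 4, 29.0 in the 23 of the class 4 to 8 and 30.0 in the 9 of the class 8 to 16. Over all genes the medians were 8, 21 and 26 in the same order. The 300-base window of ADAMTS18 had 30 CpG dinucleotides and 2 GC boxes, close to ADAM17 with 36 and 3, while ADAM21 and ADAM20 had 1 and 0 CpG dinucleotides. ADAMTSL1, the member with the highest difference, had 8.

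**Figure D5:**
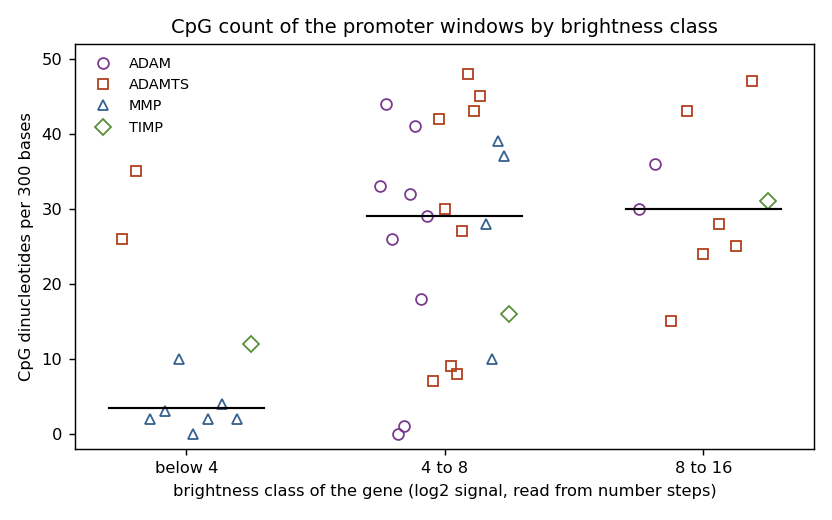
CpG dinucleotides in each 300-base promoter window (y axis) by the brightness class of the gene (x axis, log2 signal below 4, 4 to 8 and 8 to 16), with symbols by family and points spread sideways only to keep them apart. Horizontal lines are medians, 3.5, 29.0 and 30.0, and the MMP windows fill most of the low end of the class below 4.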

How the data were processed

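Total RNA from Caco-2 cells was labelled with biotin and run on Affymetrix arrays, according to the protocols in the labels. The authors made the deposited log2 values by RMA, per the submitters' processing notes. That they are on a log2 scale, and centred on each probe set's median (0 in 54675 of 54675, tolerance 1e-06), was read from the values. For the RMA software, its version and scan dates, the sources used here give nothing. The platform annotation gave 1 symbol to 41091 probe sets, several to 1801 and none to 11721, with symbols updated through RefSeq. Control probe sets (62) were left out. Groups were compared by limma 3.58.1 (R 4.3.3, lmFit and eBayes, group as the only term, 6 arrays), with Benjamini-Hochberg adjustment over 19775 genes and a threshold of 0.05. The fit was tested on simulated data. At most 52 gene values were equal between any 2 arrays. Alternatives were other rules for probe sets, scalings, weights, a replicate block and leaving out each array.

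The members, lists and tests were chosen with earlier results of these data known. So was the rule that averages the probe sets of a gene's brightest class, on which the ADAMTS18 call depends. Genes named were SDC1, ADAMTS18, ADAMTS16, the 5 lowest p per family, all sheddases and TIMPs, and the 2 lowest p of each outside list. Other members are named by role group.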

Additional observations from a re-analysis of the deposited data

How the results depend on the processing

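The count of 1 member called by limma was 0 when all probe sets were averaged (6 at an unadjusted p under 0.05), with probe sets fitted singly (11), with the replicate block (5), at an adjusted p of 0.01, and without any 1 array (0 to 0, with 3 to 9 unadjusted). It was 1 in the other 6 settings. Unadjusted counts over all features were 2026 of 19775 with all probe sets averaged, 4547 of 54613 singly and 1666 of 19775 with the replicate block. Without an array they ran from 1406 to 2443 of 19775. Over all genes the count of 5 called became 3 with all probe sets averaged, 11 without the lowest brightness class, 39 with array weights and 0 with the replicate block or single probe sets. ADAMTS18 missed the threshold at -0.55 with all probe sets averaged, at -1.01 and -0.089 for its probe sets singly, at -1.01 with the replicate block (limma adjusted p = 0.0944) and at -1.08 to -0.93 without an array. SDC1 missed it at -0.90 after quantile normalization, at -0.83 and -0.85 for its probe sets singly, at -0.84 with the replicate block (limma adjusted p = 0.0929) and at -0.92 to -0.78 without an array. Same-numbered arrays deviated with correlations of -0.008, -0.263 and -0.113, so the numbers were not taken as pairs.

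Of the 30 other genes that the naming rule gave, 12 changed sign, all uncalled. Without an array the range was -0.077 to 0.27 for TIMP4, -0.0066 to 0.058 for TIMP1, -0.058 to 0.11 for TIMP3, -0.065 to 0.023 for TIMP2, -0.049 to 0.026 for ADAM10, -0.13 to 0.0043 for ADAM17, -0.0073 to 0.16 for MMP7, -0.0046 to 0.056 for MMP14, -0.041 to 0.052 for MMP16, -0.074 to 0.0079 for ADAMTS1 and -0.077 to 0.067 for ADAMTS16. Array weights gave 0.0063 for ADAM10, -0.028 for MMP7 and -0.045 for ADAMTS16, and quantile normalization -0.014 for ADAMTS16. Averaging all probe sets gave 0.0004 for ADAM10 and 0.036 for PAPLN. Without _x_at and _s_at probe sets MMP16 was at -0.021 and PAPLN at 0.15. Apart from the probe set rules, which change the features averaged, and the fits on fewer arrays, the cause was not tested.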

Other observations

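Probe sets that the symbol rule leaves out gave values for neighbouring and shared transcripts. The 1 probe set shared by MMP23A and MMP23B and the 1 shared by ADAM29 and a second locus had groups that overlapped. ADAMTS16-DT, a transcript named for its divergent position beside ADAMTS16, read 0.04, 0.17 and 0.04 on SDC1 siRNA replicates 1, 2 and 3, and -0.04, -0.40 and -0.19 on control siRNA replicates 1, 2 and 3. Its groups did not overlap, and it did not pass among all probe sets (unadjusted p = 0.0215, limma adjusted p = 0.524). It was in the class below 4. MMP24OS, an antisense transcript of MMP24, had 4 probe sets, all above 0 (0.02 to 0.15), and the groups did not overlap in the highest of them (limma adjusted p = 0.701). Control replicate 2 read -0.19, -0.25, -0.00 and -0.26 in these 4, and no fit of them left that array out. They read the same transcript, so they are not separate observations.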
